A study of Mus musculus with 16 samples.

Results

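The expression dosage of mouse chromosome 4 was described in organoid lines of pancreatic ductal adenocarcinoma. The members were chosen by position and level: all genes that GENCODE mouse release M21 places on chromosome 4 (GRCm38) with a mean of at least 5 CPM (CPM is a gene's expected count scaled to a common library total) over 16 lines. This left 646 of the 2865 chromosome 4 genes in the tables, of which 630 are protein coding. The chromosome was picked because its expression was already known to be shifted in some of these lines, so the line medians below are descriptions with no p-value. Counts of tested genes on the same lines describe the chromosome too and are no separate evidence of its shift. Genes just inside the minimum were Mob3c at 5.01 CPM, Lyrm2 at 5.02 CPM and Ccdc163 at 5.03 CPM. Those just outside it were Mutyh at 4.86 CPM, Zbtb8a at 4.79 CPM and Lurap1 at 4.75 CPM.

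The lines came from 6 KPC mice, a model of pancreatic cancer in which Cre recombinase acts in the pancreatic epithelium. Strain was labelled C57BL6/J; the alleles of each animal and its age are not given in the sources used here. All lines were grown in Matrigel with the same complete medium, which holds the TGF-beta receptor inhibitor A83-01, EGF, FGF-10, gastrin, noggin and R-spondin. There were 7 tumor lines, namely T3 (mouse 1), T6 (mouse 2), T19 (mouse 3), T23 (mouse 4), T34 (mouse 5) and T69a and T69b (mouse 6). The 9 metastasis lines were M1 (mouse 1, liver), M3P (mouse 2, peritoneum), M6 (mouse 3, peritoneum), M10 (mouse 4, peritoneum), M15 and M16 (mouse 5, diaphragm and lung), and M28, M29 and M30 (mouse 6, liver, diaphragm and ovary). Each of mice 2, 3 and 4 gave a peritoneal line and no other metastasis line, so peritoneal site and those mice cannot be told apart. Each line is a single library, and lines of one mouse share their animal.

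Mammalian cells carry a pair of each autosome, and the RNA output of most genes follows the number of copies, with some buffering. When a whole chromosome or a long arm is gained or lost in a tumor, many neighbouring genes therefore tend to shift by a similar small amount. Mouse chromosome 4 carries the Cdkn2a and Cdkn2b cell cycle inhibitor locus and, toward its far end, a block related to the short arm of human chromosome 1, both often lost in cancers. Mouse chromosomes have their centromere at the start, so a partial loss usually takes the far side of a break. DNA copy number was not measured in these data.

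Promoters of 5 members are printed because these genes mark the main features below: Txn1 and Ecpas lie on either side of the position where expression steps down in M3P, and, among members with a mean of at least 50 CPM, Ints11 had the level most like the chromosome's over the lines and Tspan1 and Mrpl50 were among the 5 least like it. Each run is the 120 bases just before the transcript start, read on the gene's strand from RefSeq's promoter table (GRCm38.p6). Capitals mark the GC box, GGGCGG on either strand, with no motif overlapping another in these runs. The TATA motif, TATAAA on either strand, was searched too and is in none of them. The windows are chr4:57956412-57956531 on the minus strand for Txn1, chr4:58912750-58912869 on the minus strand for Ecpas, chr4:155869447-155869566 on the plus strand for Ints11, chr4:116167599-116167718 on the minus strand for Tspan1 and chr4:49521084-49521203 on the minus strand for Mrpl50.
Txn1: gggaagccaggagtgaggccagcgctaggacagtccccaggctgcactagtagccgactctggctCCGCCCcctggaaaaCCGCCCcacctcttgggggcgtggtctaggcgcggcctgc
Ecpas: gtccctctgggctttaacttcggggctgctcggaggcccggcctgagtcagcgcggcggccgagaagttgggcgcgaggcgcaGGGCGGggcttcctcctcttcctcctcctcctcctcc
Ints11: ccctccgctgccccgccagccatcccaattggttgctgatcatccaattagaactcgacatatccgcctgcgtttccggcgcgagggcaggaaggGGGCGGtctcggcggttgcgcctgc
Tspan1: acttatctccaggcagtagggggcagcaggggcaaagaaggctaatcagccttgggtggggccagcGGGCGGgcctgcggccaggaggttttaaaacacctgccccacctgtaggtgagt
Mrpl50: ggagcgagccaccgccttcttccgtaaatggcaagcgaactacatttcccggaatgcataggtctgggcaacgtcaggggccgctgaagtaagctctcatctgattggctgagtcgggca
The GC box was in the runs of Txn1, Ecpas, Ints11 and Tspan1, and these letters were not in the window of Mrpl50. Of the 646 members, 510 were matched by symbol in the table, and 57.5% of those had a GC box in this window, against 53.6% of 7145 matched genes of the other autosomes with at least 5 CPM and 26.9% of all 27025 genes in the table. The TATA motif was in 2.16% of members, 2.48% of the other expressed genes and 6.76% of all genes. These matches are letters only and say nothing of binding.

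Total expected counts ran from 24624420 to 49965492 per library. Genes that collect ribosomal RNA reads took 72.7% of the counts of M15 and 29.9% of T6, and from 14% to 18.5% of the 3 peritoneal lines, which lowers the plain CPM of every other gene. For that reason each line was centred: the difference of a gene is its log2(CPM + 0.5) minus the mean of 6 reference tumor lines (all tumor lines but T69a), minus the line's own median of that value over 9192 genes of the 18 other autosomes. T69a was kept out of the reference because it stands apart from the other tumor lines: its summed CPM of 10 p53 target genes (Trp53inp1 among them is itself a member) was 316, while the other 6 tumor lines ranged from 1260 to 1907 and the metastasis lines from 88.7 to 326. These sums are plain CPM, which ribosomal RNA reads lower. The lowest, 88.7, was M15 with its 72.7% of such reads, and the other metastasis lines ranged from 187 to 326. All 8 epithelial markers (Epcam, Cdh1, Krt8, Krt18, Krt19, Krt7, Sox9 and Muc1) were above 1 CPM in all 16 lines. Summed fibroblast markers reached at most 0.586 CPM, endothelial markers 1.71 CPM, acinar markers 1.93 CPM and immune markers 6.27 CPM.

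Chromosome 4 was expressed at a lower level in the 3 peritoneal lines and close to the reference in the other 13 lines. The median difference of the 646 members was -0.34 in M6, -0.47 in M3P and -0.56 in M10 on the log2 scale. These medians correspond to levels 21%, 27.9% and 32.2% under the reference. The mean of the 3 line medians was -0.46 ± 0.11 (SD, n = 3). The 6 metastasis lines from other sites lay between -0.10 in M30 and 0.04 in M1, with a mean of -0.04 ± 0.05 (SD, n = 6). The 7 tumor lines ranged from -0.10 in T69a to 0.00 in T19, with a median of -0.003. The peritoneal lines thus did not overlap any other line. Of the other metastasis lines, the liver line M1 lay above the range of the tumor lines, and M15, M16, M28, M29 and M30 lay within it. In bulk RNA of a line, fewer cells with a given change and a smaller change in each cell cannot be told apart.

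**Figure D1:**
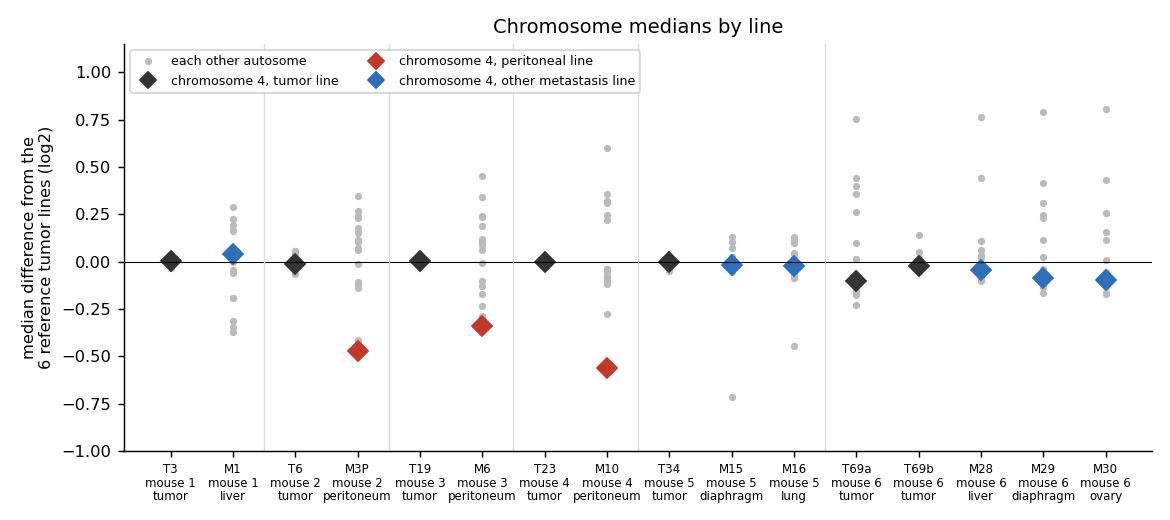
Median log2 difference from the 6 reference tumor lines for chromosome 4 (diamonds) and for each of the 18 other autosomes (grey points) in every line, ordered by mouse; no error bars are drawn since each line is 1 library. The red diamonds of the 3 peritoneal lines sit between -0.56 and -0.34, and those of the other 13 lines between -0.10 and 0.04.

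M15 and T6, with the largest shares of ribosomal RNA reads, had chromosome 4 medians of -0.02 and -0.01. Among the 19 autosomes, chromosome 4 had the lowest median in M6 and M3P and the second lowest in M10. Other autosomes were not far above it: in M6, chromosomes 8 and 12 were at -0.30 and chromosome 18 at -0.29. In M3P, chromosomes 7 and 13 were both at -0.42. In M10 the lowest was chromosome 10 at -0.58, which was also low in M6 (-0.29) and M3P (-0.41). Chromosome 3 was higher in the same lines, at 0.34 in M6, 0.60 in M10 and 0.35 in M3P. In the remaining lines chromosome 4 ranked from 4th to 12th from the lowest.

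Within each peritoneal line most members were below the reference. In M10, 587 of 646 members (90.9%) were, with quartiles of -0.82 and -0.32. In M3P 530 members (82.0%) were below it, with quartiles of -0.82 and -0.14. In M6 509 members (78.8%) were below it, with quartiles of -0.59 and -0.07. By construction 50.0% of the genes of the other autosomes were below 0 in each line. Members lower by more than 1 log2 unit numbered 96 in M10 (14.9%), 95 in M3P (14.7%) and 53 in M6 (8.20%), against 5.77%, 5.99% and 5.76% of the genes of the other autosomes. Members higher by more than 1 numbered 16, 20 and 31.

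Running medians over 51 neighbouring members were used to tell a whole from a partial shift, with a shift called whole where at least 80% of the running medians lay past 0.2 on one side and partial from 20%. M10 was lower along its whole length: 100.0% of its running medians were under -0.20, from -0.76 to -0.43. M6 was also called whole, with 93.5% of running medians under -0.20, from -0.49 to -0.12. M3P was called partial, with 78.5% under -0.20 and a range from -0.81 to 0.16. M3P was near the boundary, and with wider windows or a bound of 0.15 it was called whole; with a bound of 0.3, M6 was called partial. With windows of 51 members and a bound of 0.2, none of the other 13 lines was called shifted in either direction. A bound of 0.15 called T69a, M29 and M30 partial, and T69a was also partial with windows of 25 members or a CPM minimum of 1.

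**Figure D2:**
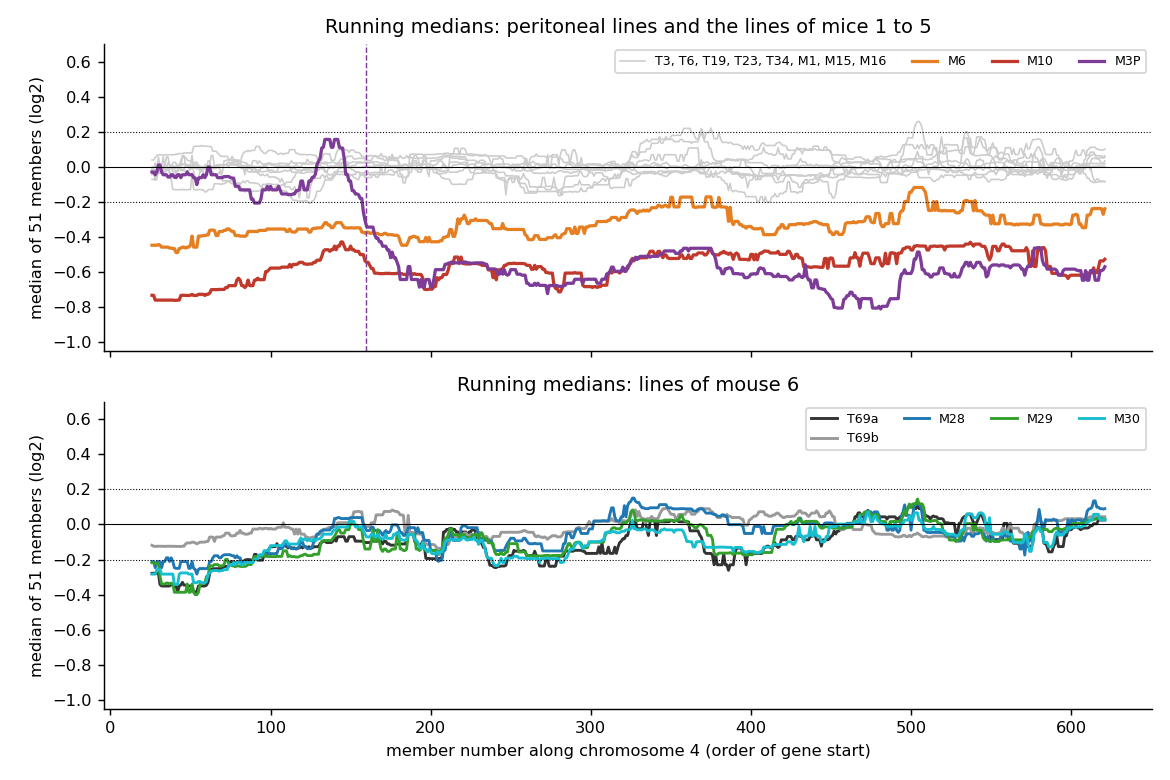
Running median of the log2 difference over 51 members (vertical axis) against member number along chromosome 4 (horizontal axis), for the peritoneal lines and the lines of mice 1 to 5 (top) and the lines of mouse 6 (bottom); dotted lines mark -0.2 and 0.2, and the dashed line the step in M3P. M10 and M6 are low throughout, M3P is near 0 before member 159 and low after it, and T69a, M28, M29 and M30 are under -0.2 in places near the start.

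M3P was split into 2 runs of members. The position with the smallest summed absolute deviation lay between Txn1 (57943373 to 57956411), which codes for the redox protein thioredoxin, and Ecpas (58798911 to 58912749), which codes for a proteasome adaptor. The 159 members up to Txn1 had a median of -0.04, with 52.2% below 0. The 487 members from Ecpas on had a median of -0.59, with 91.8% below 0. Allowing 2 runs removed 10.3% of the summed absolute deviation in M3P, against 0.554% in M6 and 0.917% in M10.

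In M3P the best position of the step varied by a few genes. There were 8 positions with a deviation within 0.5% of the best, from Epb41l4b (start 56991972) to Hsdl2 (start 59581563). When every other member was used to place the step, it fell before Ptgr1 or before Ecpas. The members not used for placing it then had medians of -0.06 before and -0.62 after, or 0.03 before and -0.56 after. With T6, the tumor line of the same mouse, as the only reference the step was again between Txn1 and Ecpas, with medians of -0.01 and -0.60. In M6 and M10 the same first run was as low as the second: -0.36 and -0.32 in M6, and -0.63 and -0.55 in M10. Next to the step, single genes fell in those lines too. Epb41l4b, Ptpn3 and Txn1 were at 0.76, 0.54 and 0.10 in M6, and Ecpas was at -0.62. In M10 these genes were at 0.61, -0.15, -0.33 and -0.75. How far such genes set the exact position in M3P was not tested.

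Txn1 and Ecpas, whose values helped to place the step, are given by line. Scaled CPM is CPM divided by the line's shift over the other autosomes. Ecpas was at 82.4 in M6, 75.6 in M10 and 78.5 scaled CPM in M3P, while the 6 reference tumor lines ranged from 117 to 140 (median 126) and the other 6 metastasis lines from 96.4 to 124 (median 113). All 3 peritoneal lines were thus below all other lines for Ecpas, T69a at 94.9 included. Txn1 was at 359 scaled CPM in M3P, 313 in M6 and 232 in M10, against 251 to 347 (median 293) in the reference lines. For Txn1, M3P was higher and M10 lower than every reference line. Both lay within the range of the other 6 metastasis lines, 222 to 367, and T69a was at 224.

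By 10 Mb bins, M3P ran from -0.10 to 0.15 in the 6 bins up to 60 Mb and from -0.85 to -0.50 in the bins after it. M10 ran from -1.16 in the bin from 20 to 30 Mb to -0.37 in the bin from 80 to 90 Mb. M6 ran from -0.56 in the bin from 30 to 40 Mb to -0.23 in the bin from 120 to 130 Mb.

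Lines of mouse 6 other than T69b were low in several bins. In the bin from 10 to 20 Mb (27 members), T69a was at -0.34, M28 at -0.30, M29 at -0.39 and M30 at -0.37, while T69b was at -0.12. The first bin, up to 10 Mb, was near 0 in M28 (0.02) and M29 (-0.01). From 90 to 100 Mb T69a was at -0.28, M28 at -0.24 and M30 at -0.25. Such lows were not limited to this mouse: from 20 to 30 Mb M16 was at -0.28 and M1 at -0.29. Over the 159 members before the M3P step, the medians were -0.20 in T69a, -0.15 in M28, -0.18 in M29, -0.17 in M30 and -0.07 in T69b. Over the later 487 members they were between -0.07 (T69a and M30) and 0.00 (T69b). Running medians under -0.20 made up 16.8% in T69a, 7.89% in M28, 10.2% in M29 and 12.6% in M30, below the 20% set for a partial shift. With a bound of 0.15 the shares under it were 32% in T69a, 31.2% in M29 and 24.7% in M30, past that mark. M16 was at -0.09 and M15 at -0.05 in the first run.

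Among the members, the medians of the peritoneal lines were similar over expression level and strand. Split by mean CPM into 3 groups (5.01 to 18.4, 18.5 to 49.7 and 49.9 to 1650), the medians were -0.39, -0.32 and -0.33 in M6, -0.62, -0.58 and -0.52 in M10 and -0.51, -0.47 and -0.45 in M3P. Genes on the plus and the minus strand differed by at most 0.04 in these lines. The 139 chromosome 4 genes with a mean of 1 to 5 CPM, which are not members, had medians of -0.22 in M6, -0.36 in M10 and -0.35 in M3P. In those weakly expressed genes M16 was at -0.21 and M15 at -0.13, so the gap to the other lines was narrower. An added 0.5 CPM makes differences of low genes smaller, and its part in these values was not tested.

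Each metastasis line was also set against the tumor line of its own mouse (T69b for mouse 6). The median difference of the members was -0.35 for M6 minus T19, -0.57 for M10 minus T23 and -0.49 for M3P minus T6. In the other pairs it was 0.03 for M1, -0.02 for M15, -0.02 for M16, -0.03 for M28, -0.10 for M29 and -0.11 for M30. In all 3 peritoneal pairs, 420 members (65.0%) were lower than in the own tumor line, against 24.7% of the genes of the other autosomes. In all 3 pairs 22 members (3.41%) were higher, against 24.4%. Of the members before the M3P step, 75 of 159 were lower in all 3 pairs, and of those after it 345 of 487. Because the chromosome was chosen for its shift in these lines, these shares describe it and are no separate evidence.

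**Figure D3:**
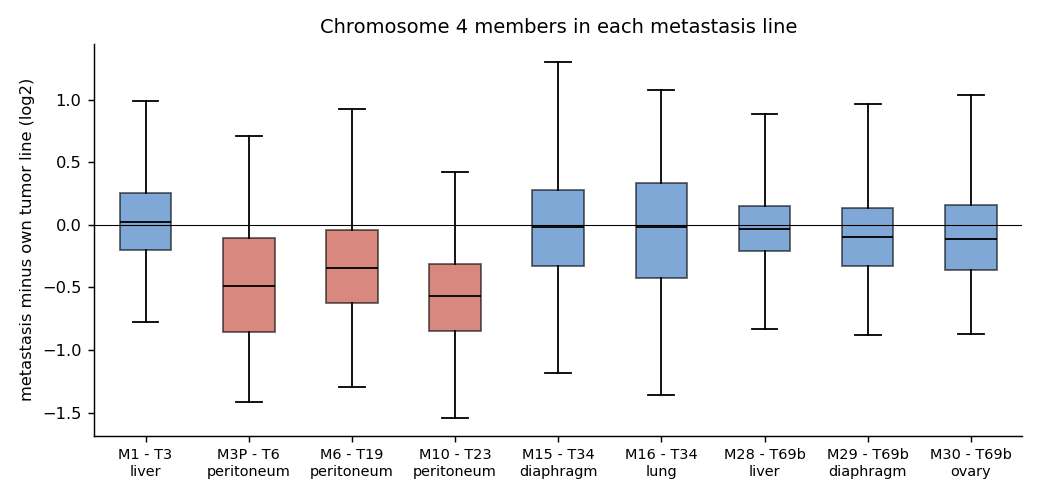
Log2 difference of the 646 members between each metastasis line and its own tumor line, centred on the other autosomes; boxes span the quartiles, black lines are medians and whiskers the 5th and 95th percentiles over genes. The medians of the 3 peritoneal pairs (red) are -0.35, -0.57 and -0.49, and those of the other pairs (blue) lie between -0.11 and 0.03.

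For part of the members, the level ranges of the peritoneal lines did not overlap those of the other lines. All 3 peritoneal lines lay below all 6 reference lines for 294 members (45.5%, against 11.8% of the genes of the other autosomes). They lay below all 13 other lines, metastasis lines included, for 139 members (21.5%, against 1.23%), and above all 13 for 0 members (against 1.51%). Of these 139 members, 133 were after the M3P step (27.3% of 487) and 6 before it (3.77% of 159). The chromosome was chosen for its shift in these lines, and the step was placed on M3P's own values. These counts therefore describe the members and are no separate evidence.

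For the comparison of stages, edgeR's quasi-likelihood test with a term for each mouse called 105 of 646 members lower and 17 higher in metastasis lines, at a Benjamini-Hochberg adjusted p of 0.05 over 15573 genes. Among all genes tested 9.92% were called lower and 6.59% higher, against 16.3% and 2.63% of members. The median stage difference was -0.17 for members and -0.02 for all genes tested. Without T69a, 157 members were called lower and 31 higher. Without M15 and T6, the libraries richest in ribosomal RNA reads, the counts were 28 and 5. Leaving out T6, T19, T23, T34, M6, M10 or M3P, each alone, brought the count of lower calls to between 45 and 52, and leaving out T3, T19, T34, M1 or M6 brought the count of higher calls to between 8 and 11. Each of these omissions, and that of M15 with T6, left a mouse without a tumor line or without a metastasis line. With a term for each mouse, that mouse then no longer informed the stage difference.

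A fit with separate stage terms for peritoneal and other lines, chosen after the line medians were seen, split the stage difference by site. The median over members was -0.43 for peritoneal lines minus the tumor lines of their mice, and -0.02 for the lines of other sites minus theirs. Here T69a counted as a tumor line of mouse 6 beside T69b, and its chromosome 4 median was -0.10. This fit was not run without T69a alone. For the peritoneal term 167 members were called lower and 4 higher, where 5.12% and 4.13% of all genes were called; the chromosome and the term were chosen on these lines, so nothing is read from that excess. For the other sites 6 members were called lower and 1 higher, where 1.09% and 0.0835% of all genes were called. The peritoneal count changed with the lines used: it was 32 without M6, 14 without M10, 7 without M3P, 77 without mouse 6 and 3 without M15 and T6. Without T6, M3P has no tumor line of its mouse, so that peritoneal pair was lost from the fit as well. The test of the difference between both terms called 0 members by edgeR (0.00% of all genes in either direction). At an unadjusted p of 0.05 edgeR gave 198 members lower and 1 higher, where 3.76% and 3.21% of all genes were, and DESeq2 called 20 members lower and 0 higher after adjustment, where 46 and 48 of all 15322 genes with an adjusted p were called.

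Differences between mice were tested with the mouse terms of the stage fit. edgeR called 0 members (0.154% of all genes), with 98 at an unadjusted p of 0.05 (17.1% of all genes), and DESeq2 called 63 (11.3% of its genes).

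Lists by role held 128 members, of which 89 (69.5%) were lower than the own tumor line in all 3 peritoneal pairs, against 331 of the 518 members in no list (63.9%). The lists were drawn up with results of these data known. Their counts are given as descriptions.

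Of 13 ribosomal protein and translation genes, 12 were lower in all 3 pairs (92.3%), and of 15 RNA processing genes, 14 (93.3%). Of all members 65.0% were. The exceptions in these lists were Mrto4 and Snrnp40. Mrto4, a ribosome assembly factor, had differences of -0.22, 0.20 and 0.08 in M6, M10 and M3P. Snrnp40, a spliceosome protein, had -0.34, -0.36 and 0.05. The stage test called 0 of 13 and 0 of 15, and the peritoneal term 4 and 5, all lower, where 9.92% of all genes were called lower by stage and 5.12% by the peritoneal term. In the peritoneal fit the median log2 difference was -0.45 for the first list and -0.43 for the second, next to -0.43 for all members.

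Rps6, the small-subunit protein phosphorylated downstream of mTOR, was at 732 scaled CPM in M6, 779 in M10 and 613 in M3P. Its 6 reference lines ranged from 1053 to 1215 (median 1081) and the other 6 metastasis lines from 916 to 1086 (median 1057). The peritoneal lines were below every other line, and the fitted peritoneal difference was -0.65 ± 0.13 (log2, SE). Rpl11, which binds Mdm2 when ribosome assembly fails, was at 409, 417 and 338 scaled CPM in M6, M10 and M3P. Its reference lines ranged from 414 to 519 (median 500), because T6 was at 414, so M10 overlapped them. Ybx1, an RNA-binding translation factor, was at 651, 724 and 670 scaled CPM against 877 to 1102 in the reference lines and 990 to 1523 in the other metastasis lines. Rpl22 and Rps20 were also below all reference lines in the 3 peritoneal lines. For Rps20 the other metastasis lines, at 412 to 816, overlapped the peritoneal lines.

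Ints11 is the catalytic subunit of the Integrator complex, which cleaves nascent RNA. It was at 48.9 scaled CPM in M6, 40.0 in M10 and 37.4 in M3P, while the reference lines held 60.3 to 68.4 (median 65.2) and the other metastasis lines 59.7 to 75 (median 69). Srsf4 and Srrm1, both SR-type splicing factors, were likewise below all other lines. Hnrnpr, an RNA-binding protein, was at 70.1, 62.5 and 67.2, below the reference lines at 95.2 to 112 and the other metastasis lines at 74.5 to 99.1, with T69a at 69.1 among the peritoneal lines. Sfpq, a paraspeckle protein, was at 131, 103 and 148 in the peritoneal lines against 156 to 191 in the reference lines. The other metastasis lines at 129 to 171 and T69a at 108 overlapped the peritoneal range. Khdrbs1 (Sam68) was at 85.3 to 89.3 in the peritoneal lines, against 109 to 131 in the reference lines. The other metastasis lines at 77.4 to 118 overlapped it, and T69a was at 70.6.

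**Figure D4:**
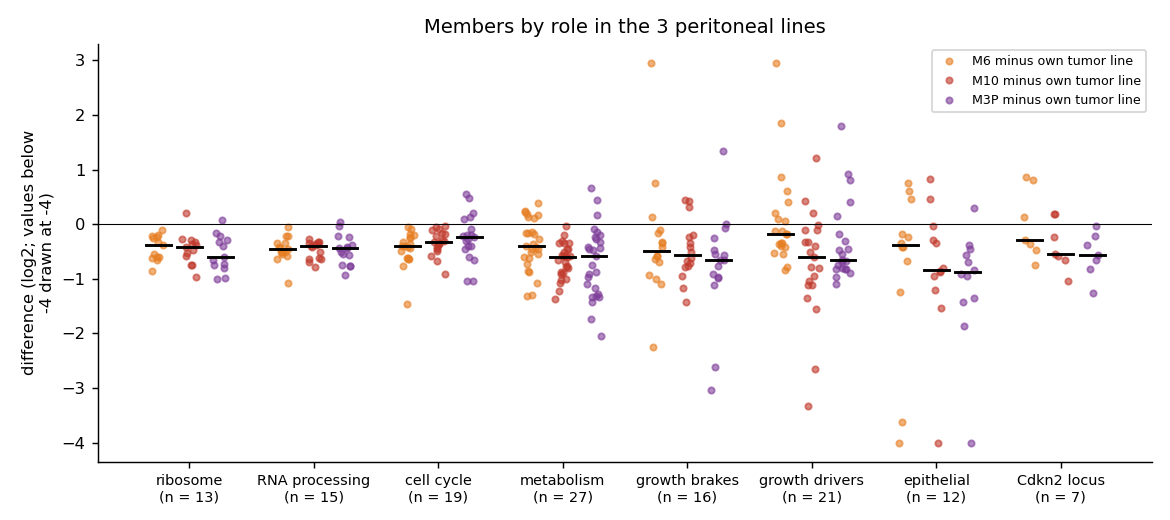
Log2 difference of each listed member between a peritoneal line and its own tumor line, by role and line; each point is a gene, black bars are medians over the genes of a list, and values under -4 are drawn at -4 (Ambp). Ribosome and RNA processing genes form tight groups under 0, and growth drivers spread on both sides. Of these, 12 of 13 ribosome and 14 of 15 RNA processing genes were lower in all 3 lines, against 65.0% of all members.

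Among 19 genes listed for replication and mitosis, 14 were lower in all 3 pairs (73.7%, against 65.0% of all members). None of the 19 was higher in all 3 pairs. Their median peritoneal difference was smaller, at -0.29, and the median for other sites was 0.13. The stage test called 2 lower, Stmn1 and Mycbp, which is 10.5% of the list, near the 9.92% of all genes. Mycbp, a Myc-binding protein, has no established part in replication or mitosis. Stmn1, which destabilises microtubules, was at 71.2, 75.5 and 79.3 scaled CPM in M6, M10 and M3P. The other metastasis lines held 51.1 to 113 and the reference lines 143 to 198, with T69a at 64.9 among the metastasis lines (stage log2 difference -0.94 ± 0.20 SE, edgeR adjusted p = 0.0112). Cdc20, the activator of the anaphase-promoting complex, was at 131, 116 and 116 in the peritoneal lines, inside or near the reference range of 121 to 204 and below the other metastasis lines at 153 to 259. Kif2c and Stil, a mitotic kinesin and a centriole protein, were below all other lines, and Orc1 and Cdca8 overlapped both sets.

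Of 27 genes of mitochondrial energy and metabolism, 18 were lower in all 3 pairs (66.7%, near the 65.0% of all members). None was higher in all 3, and the stage test called 8 lower and 0 higher. Those 8 are 29.6% of the list, against 16.3% of all members and 9.92% of all genes called lower. The peritoneal term called 11 lower (40.7%, against 25.9% of all members and 5.12% of all genes). Sdhb, the iron-sulphur subunit of succinate dehydrogenase, was at 60.5, 59.3 and 49.1 scaled CPM in M6, M10 and M3P. Its reference lines ranged from 67.9 to 81.1 and the other metastasis lines from 71.1 to 78.2, without overlap. Eno1, a glycolytic enolase, was at 844, 883 and 759 against 1137 to 1759 in the reference lines and 1254 to 1784 in the other metastasis lines. Atpif1, the inhibitor of the mitochondrial ATP synthase, was at 53.6, 49.3 and 31.9 scaled CPM in M6, M10 and M3P. The other metastasis lines held 61.5 to 102 and overlapped the reference lines at 77.7 to 134 (stage log2 difference -0.86 ± 0.20 SE, edgeR adjusted p = 0.0172). Cpt2, which acts in mitochondrial fatty acid import, was at 16.4, 14.1 and 12.2 against 26.5 to 30.7 in the reference lines. The other metastasis lines held 16.5 to 28.2, so the lowest of them was close to M6. Ndufb6, a complex I subunit, lies before the step, and was at 31.0 in M3P but 22.3 in M6 and 20.9 in M10, with reference lines at 32.7 to 38.3.

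Of 16 genes listed as suppressors or growth brakes, 11 were lower in all 3 pairs (68.8%, near the 65.0% of all members) and 1 higher. The list also held Dnajc8, a chaperone of splicing factors, which has no such established role. Arid1a, a subunit of the SWI/SNF chromatin remodeller, was at 16.8, 15.2 and 18.9 scaled CPM in M6, M10 and M3P, below the reference lines at 21.8 to 28.5. T69a was at 17 and the other metastasis lines at 18.0 to 40.8, where M15 was the highest, so those sets overlapped. Casp9, the initiator caspase of the mitochondrial death pathway, was at 7.08, 7.57 and 4.56 against 9.26 to 12.7 in the reference lines. Cdkn2c, a CDK4 and CDK6 inhibitor, did not follow: it was at 22.6, 34 and 30.7 against 22.6 to 37.3. The 4 genes called lower by stage (25%, against 16.3% of all members and 9.92% of all genes) were Nfib, Ptprf, Sesn2 and Rap1gap. Sesn2, a stress-induced brake on mTORC1, was at 5.37 to 18.0 in the peritoneal lines, 9.95 to 21.3 in the other metastasis lines and 35.5 to 49.0 in the reference lines, with T69a at 16.9 (stage log2 difference -1.35 ± 0.28 SE, edgeR adjusted p = 0.00982). The one higher in all 3 pairs was Tnfrsf1b, a receptor for TNF, at 86.2, 23.9 and 22.1 in M6, M10 and M3P, 43.6 to 70.0 in the other metastasis lines and 8.22 to 18.8 in the reference lines.

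Of 21 growth-related receptors, kinases and transcription factors, 11 were lower in all 3 pairs (52.4%, against 65.0% of all members). Another 2 were higher in all 3 pairs and 8 were mixed. Jak1, a cytokine receptor kinase, was at 72.8, 62.3 and 57.2 scaled CPM in M6, M10 and M3P, below the reference lines at 89.1 to 114. Mtor was at 36.3, 28.7 and 33.4 against 41.6 to 50.0, and Cdc42, a small GTPase of cell polarity, at 302, 258 and 221 against 366 to 408. For each of these, the peritoneal lines were below all other lines. Mycl, a Myc family factor, was at 3.30, 1.6 and 2.50 against 4.63 to 9.72. Tgfbr1, the type I TGF-beta receptor, lies before the step, and was at 86.4 in M3P, above the reference range of 47.9 to 77.5, but at 43.1 in M6 and 37.9 in M10. The other metastasis lines held 28.8 to 71.3 (median 35.3), a range that includes M6 and M10, and T69a was at 25.9. Klf4, a transcription factor also before the step, was called higher in metastasis lines (stage log2 difference 1.06 ± 0.26 SE, edgeR adjusted p = 0.0186). The genes higher in all 3 pairs were Prkaa2, a catalytic subunit of AMP kinase, and E2f2. Prkaa2 was at 33.9, 10.1 and 16.8 against 3.60 to 5.33 in the reference lines and 8.18 to 22.0 in the other metastasis lines.

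Of 7 members at the Cdkn2 locus and next to it, 3 were lower in all 3 pairs (42.9%, against 65.0% of all members). The stage test called none of the 7. The 3 lower in all pairs were Haus6, Mllt3 and Klhl9. Klhl9, a ubiquitin ligase adaptor beside the inhibitors, was at 153, 132 and 138 scaled CPM in M6, M10 and M3P, against 173 to 217 in the reference lines. Cdkn2a, which codes for the p16 and p19 inhibitors, was at 72.1, 66.2 and 45.1 against 39.4 to 58.1 in the reference lines and 63.2 to 97.9 in the other metastasis lines. Cdkn2b was at 48.8, 25.8 and 15.2 against 26.6 to 54.4. RNA of both genes was thus present in all 3 peritoneal lines. Mtap, the neighbouring methionine salvage enzyme, was at 146, 119 and 145 against 132 to 170 in the reference lines. The other metastasis lines held 151 to 263, so all 3 peritoneal lines were below them.

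Of 12 epithelial surface, secreted and matrix genes, 8 were lower in all 3 pairs (66.7%, near the 65.0% of all members). The stage test called 3 lower: Ambp, Hspg2 and Agrn. That is 25% of the list, against 16.3% of all members and 9.92% of all genes. Agrn, a basement membrane proteoglycan, was at 114, 113 and 115 scaled CPM in M6, M10 and M3P, 185 to 218 in the other metastasis lines and 236 to 347 in the reference lines, so the 3 sets did not overlap. Hspg2 (perlecan) was at 2.50 in M6, 19.5 in M10 and 12.5 in M3P against 32.2 to 47.4 in the reference lines. The other metastasis lines, at 13.6 to 30.5, were below the reference lines too and overlapped M10, and T69a was at 23.6. Ambp, a secreted precursor of alpha-1-microglobulin and bikunin, was at 23.8 to 275 scaled CPM in the reference lines and 9.74 in T69a. It was at 0.0271 to 0.152 in the peritoneal lines and 0.0651 to 2.66 in the other metastasis lines (edgeR stage adjusted p = 3.43e-05), and M15 was the highest of the metastasis lines. Wnt4 overlapped in all sets.

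**Figure D5:**
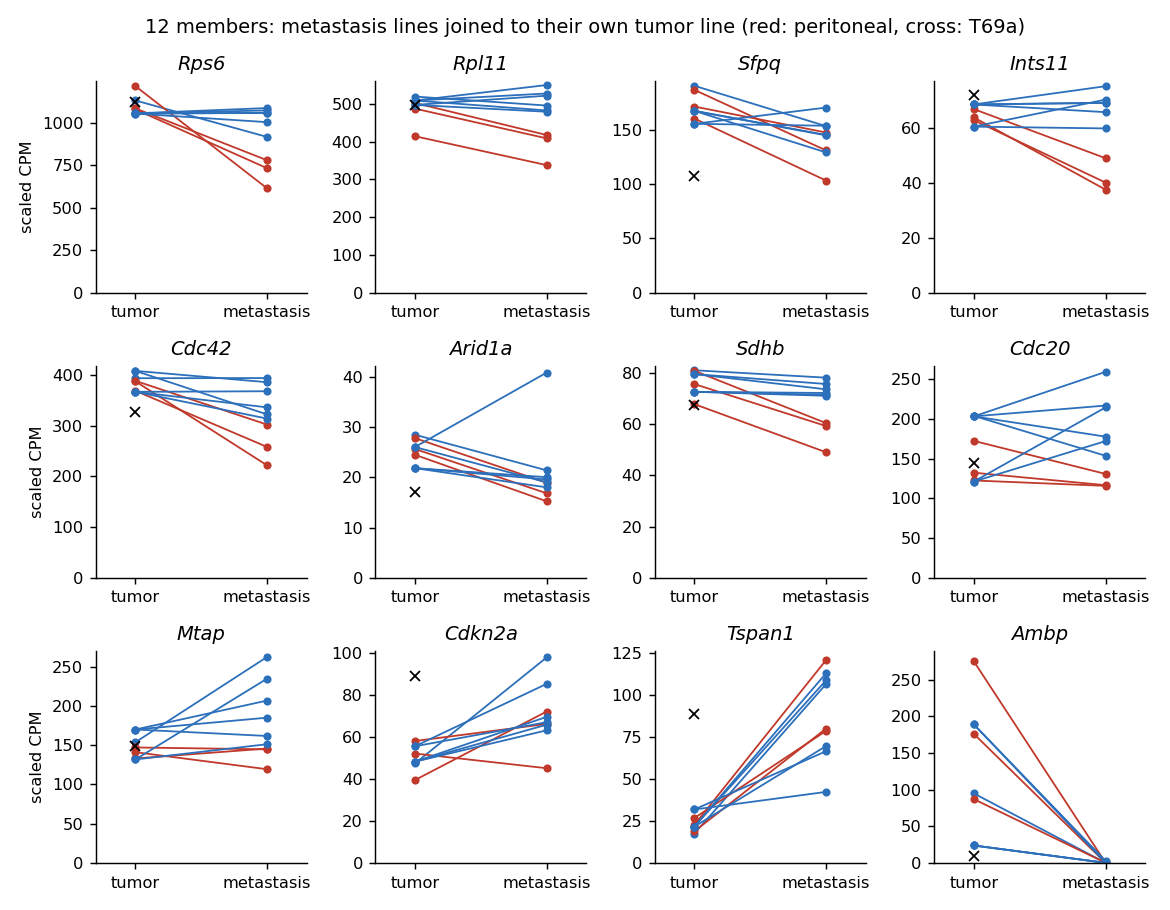
Scaled CPM (CPM divided by the line's shift over the other autosomes) of 12 members, with each metastasis line joined to its own tumor line (red peritoneal, blue other sites, cross T69a); each point is 1 library. For Ints11, Cdc42, Rps6 and Sdhb the red points of metastasis lines lie under all others, while Cdkn2a and Mtap overlap the tumor lines, Tspan1 is higher and Ambp is near 0 in metastasis lines.

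The stage test's largest fitted differences among members were as follows. The 5 lowest called members were Ambp, Kif12, Car9, Zfp462 and Trp53inp1. Trp53inp1, a p53 target that promotes cell death, was at 84.4 to 218 scaled CPM in the reference lines, 28.7 in T69a, 6.86 to 8.16 in the peritoneal lines and 3.78 to 18.6 in the others (stage log2 difference -3.63 ± 0.45 SE, edgeR adjusted p = 0.00109). Car9, a carbonic anhydrase induced by hypoxia, was at 1.24, 0.329 and 0.239 in M6, M10 and M3P, below 4.65 to 64.2 in the other metastasis lines and 72.6 to 168 in the reference lines. Kif12, a kinesin, was at 19.9 to 70.5 in the reference lines, 1.72 in T69a and 0.108 to 10.2 in metastasis lines. Zfp462, a zinc finger protein, was at 10.7 to 21.8 in the reference lines and 0.247 to 15.5 in metastasis lines, of which M15 and M16 were the highest.

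The 5 highest called members were Grhl3, Nbl1, Ptprd, Nt5c1a and Gem. Grhl3, an epithelial transcription factor, was at 0.415 to 2.92 scaled CPM in the reference lines, 9.07 to 11.1 in the peritoneal lines, 7.38 to 35.5 in the others and 27.9 in T69a (stage log2 difference 2.61 ± 0.67 SE, edgeR adjusted p = 0.0243). Ptprd, a receptor tyrosine phosphatase, was at 2.32 to 13.3 in the reference lines and 22.6 to 59.0 in metastasis lines, with the tumor line T69a at 51.7. Nbl1, a secreted BMP antagonist, was at 1.83 to 8.39 in the reference lines; M3P was near that range at 9.11, M6 and M10 were at 39.5 and 48.1, and T69a was at 39.2. Grhl3, Ptprd and Nbl1 were above all 6 reference lines in the 3 peritoneal lines, and overlapped the other metastasis lines.

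Likeness to the chromosome was measured as Pearson's r over the 16 lines between a member's difference and the median of all other members. Among 215 members with a mean of at least 50 CPM and a named symbol, the median r was 0.60, 138 (64.2%) had an r of 0.5 or more and 9 were below 0. The 16 lines share mice, and the values are a description. The most alike were Ints11 (0.92), Patj, a tight junction scaffold (0.91), Cdc42 (0.90), Dnajc8 (0.90) and Ecpas (0.89). Without the peritoneal lines, r over the other 13 lines was -0.15 for Ints11, 0.26 for Patj, 0.80 for Cdc42, 0.66 for Dnajc8 and 0.79 for Ecpas. Patj was at 69.7, 59.8 and 69.4 scaled CPM in M6, M10 and M3P, and all other lines were at 94.3 or more.

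The least alike were Tspan1 (-0.45), Ctnnal1 (-0.14), Epb41l4b (-0.14), Mrpl50 (-0.14) and Cdh17 (-0.08). Tspan1, a surface tetraspanin, was at 121, 79.9 and 78.5 scaled CPM in M6, M10 and M3P, against 17.5 to 31.8 in the reference lines, and at 42.2 to 113 in the other metastasis lines. Cdh17, an intestinal cadherin, was at 658, 157 and 567 against 85.8 to 294 in the reference lines and a median of 604 in the others, so M10 alone of the metastasis lines lay within the reference range. T69a was at 616, among the metastasis lines. Mrpl50, a mitochondrial ribosome protein before the step, was at 45.9, 56.2 and 74.2 against 46.6 to 65.3. All of these except Tspan1 lie before the step in M3P, where the chromosome was not lower in that line.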

How the data were processed

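RNA of 16 organoid lines was sequenced from stranded libraries depleted of ribosomal RNA, per the labels' protocols. The authors deposited expected counts and TPM per gene; per the submitters' processing notes they used FastQC 0.11.8, STAR 2.6.0c, RSEM 1.3.1 and the genome build GRCm38.p6. RSEM shares reads between similar genes, so near-identical copies are uncertain. Isoform tables were not used. The 55487 gene IDs were matched without version numbers to GENCODE M21, and 55394 were placed. The members, lists and tests were chosen with earlier results of these data known.

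CPM is the expected count over the library total. TPM, as deposited by the authors, served as an alternative. Differences are log2(CPM + 0.5) minus the mean of 6 tumor lines, centred on 18 autosomes; plain values carry the ribosomal RNA share. Groups came from the stage, mouse and site labels. Counts were rounded and tested with edgeR 4.0.16 (quasi-likelihood, TMM, filterByExpr by stage, terms for mouse and stage, R 4.3.3) over 15573 genes with Benjamini-Hochberg adjustment at 0.05; DESeq2 1.42.0 was an alternative. Mice pair the lines, so mouse is a term in each fit. p-values measure the spread between lines that is left after the terms of the fit. Scripts were tested on simulated data. Some items are not reported here. Named genes were the first 6 members of each list, the 5 highest and 5 lowest called stage differences, the 5 most and 5 least alike members, and those at the CPM minimum or the M3P step; Prkaa2, E2f2, Tnfrsf1b, Sesn2, Nfib, Ptprf, Rap1gap, Stmn1, Agrn, Eno1, Mrto4, Snrnp40, Mycbp, and Haus6 were chosen after their values were seen.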

Additional observations from a re-analysis of the deposited data

Results flagged for a closer look

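In 156 groups of 7 tumor or 9 metastasis lines (medians and named genes), 18 had a line far from the others by Dixon's ratio; chance alone gives about 1 in 20. Of the 13 in tumor lines, 11 were T69a. Its chromosome 4 median was -0.10, with the other tumor lines at -0.02 or above. Its median was -0.20 before the M3P step and -0.069 after it. T69a was the lowest tumor line for Sfpq (-0.67), Hnrnpr (-0.57), Khdrbs1 (-0.78), Kif12 (-4.14) and Zfp462 (-4.14), and the highest for Grhl3 (4.19), Tspan1 (1.94) and Epb41l4b (2.20). T69b was the lowest tumor line for Klhl9 (-0.22) and T6 for Rpl11 (-0.23).

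Among metastasis lines, M15 was the highest for Arid1a (0.71) and Ambp (-4.66, others at -7.35 or less), M6 the lowest for Hspg2 (-3.59), M3P the lowest for Nbl1 (1.23) and M10 the lowest for Cdh17 (-0.13). M15 is also the library with 72.7% ribosomal RNA reads, and the part of that share in its values was not tested.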

How the results depend on the processing

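The chromosome 4 medians kept their size in all centred settings (CPM minimum of 1 or 20, pseudocount of 0.1, TPM, other references, protein coding genes only): M6 stayed between -0.36 and -0.32, M10 between -0.57 and -0.53 and M3P between -0.52 and -0.46. Without centring, medians were 0.10 (T3), -0.52 (T6), 0.13 (T19), 0.043 (T23), 0.068 (T34), -1.80 (M15) and 0.14 (T69b). Whole shifts numbered 2; they numbered 1 (M10) with a bound of 0.3 and 3 with a bound of 0.15, wider windows or a CPM minimum of 1. Partial shifts numbered 1, and 2 with windows of 25 (T69a and M3P), 0 with wider windows, 3 with a bound of 0.15 (T69a, M29 and M30) and 2 with a bound of 0.3 (M6 and M3P). Paired by mouse, 105 members were lower by stage; without the mouse block 85 were lower and 16 higher. Lower calls were 28 without the libraries richest in ribosomal RNA, and 45 to 157 with single lines left out. Higher calls were 17, against 5, 8 to 31 and, with DESeq2, 29. Mouse calls were 0, and 63 with DESeq2. In the added peritoneal fit, lower calls were 167, but 77 without mouse 6, 3 without M15 and T6 and 7 to 32 with a peritoneal line left out; higher calls were 4, 7, 0, 0 to 1 and 14 with DESeq2. The difference test gave 0, and 20 with DESeq2. Leaving out T6 also takes away the tumor line paired with M3P, so the counts without M15 and T6 rest on fewer pairs. The cause of these changes was otherwise not tested. Depth limits genes near 5 CPM, and M15 has few counts outside ribosomal RNA.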
